A study of Homo sapiens with 8 samples.

Results

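The genes of the integrated stress response were followed in Ewing sarcoma (EwS) cells in which the LOXHD1 enhancer was silenced. The 10 genes were ATF4, ATF5, ATF3, CEBPB, DDIT3, TRIB3, CHAC1, SESN2, PPP1R15A and NUPR1, out of 60332 genes in the expression matrix. They were chosen by gene symbol, with the row of the highest mean over the 8 libraries to be taken for a symbol with several rows. Each symbol had 1 row, so no row was selected on its values. The set itself was selected on earlier results for the enhancer knockdown in these same libraries, so the p-values below describe the genes and are not independent evidence for them.

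In the integrated stress response, kinases that sense amino acid shortage, endoplasmic reticulum stress, viral RNA or heme shortage phosphorylate the translation factor eIF2α. Most protein synthesis then slows, while the mRNA of the transcription factor ATF4 is translated more. ATF4 and its partners, among them CHOP (the product of DDIT3), switch on genes for amino acid supply, redox balance, feedback and, under lasting stress, cell death. ATF4 activity is therefore set largely at translation, which RNA-seq does not measure, whereas its target genes can be read at the RNA level.

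RNA-seq was carried out on RD-ES and SK-N-MC, established EwS cell lines, as control and as eKD2 cells, with 2 libraries in each of the 4 groups. The eKD2 pools expressed dCas9-KRAB, a Cas9 that does not cut and carries the KRAB repressor domain, from a lentiviral vector that also held a guide RNA against the GGAA repeat enhancer of LOXHD1. By the labels the control cells received dCas9-KRAB virus without a guide, while the paper speaks of parental cells, so what the controls share with eKD2 is not settled here. Infection was at a multiplicity of 10, followed by 1 µg/ml puromycin for 3 days, and cells were used within 5 passages. The paper describes biological duplicates, and nothing in the labels says that the libraries of a group came from separate cultures, so the p-values measure the spread between these libraries.

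Levels are given as FPKM, which is normalized to transcript length and library size and can be compared between genes. For the test, values were taken as log2(FPKM + 1), and the 15175 genes that averaged 1 FPKM or more across all 8 libraries entered 1 limma fit of the 4 groups. A gene was called when its p, after Benjamini-Hochberg adjustment over these genes, was under 0.05. All 10 genes passed the filter. Of these, 9 were above 1 FPKM in every library, while NUPR1 was just over the minimum. Fold changes on the log2(FPKM + 1) scale understate the change of low genes. With 2 against 2 libraries, 0.333 is the smallest two-sided p an exact permutation test can reach.

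LOXHD1 itself, read first as a check of the labels, was at 21.4 and 21.2 FPKM in RD-ES control, against 1.04 and 1.02 FPKM in the RD-ES eKD2 libraries, 95.2% lower (log2 fold change -3.46, limma adjusted p = 0.000113). In SK-N-MC it was at 159 and 169 FPKM in control, against 11.0 and 11.95 FPKM in eKD2, 93.0% lower (limma adjusted p = 3.71e-05). Sequencing depth is not given with FPKM. Read steps in low genes put it roughly between 6.73 M reads (M, mega), in RD-ES eKD2 replicate 1, and 26.9 M, in SK-N-MC control replicate 1. All 7 EwS markers examined were detected in every library, from 2.38 FPKM for NR0B1 to 586 FPKM for CD99.

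The lines differed in these genes. In RD-ES 7 of the 10 rose in eKD2 and none fell (0.343% of all tested genes were called, 0.264% higher), led by CHAC1 (15.1-fold), ATF3 (5.40-fold) and SESN2 (5.18-fold). In SK-N-MC none was called in either direction (0.323% of all genes were, while an unadjusted limma p under 0.05 was found for 6 of the 10 and for 13% of all genes), although DDIT3, CHAC1, ATF3 and SESN2 were between 22.8% and 47.6% lower in eKD2 and TRIB3 and ATF5 were 1.68-fold and 1.52-fold higher. The eKD2 change against control of DDIT3, CHAC1, ATF3 and SESN2 differed between the lines by the test of that difference (called for 0.244% of all genes). The 2 lines also started apart, with 9 of the 10 genes higher in SK-N-MC control than in RD-ES control (31.4% of all genes).

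**Figure D1:**
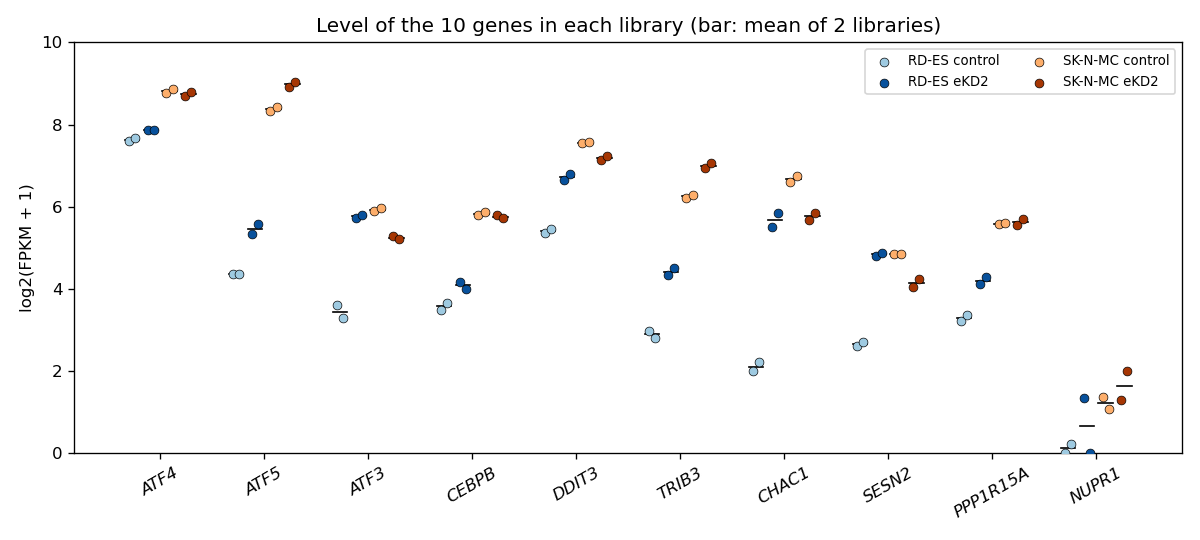
Level of the 10 genes in each of the 8 libraries as log2(FPKM + 1), with light points for control, dark points for eKD2, blue for RD-ES and orange for SK-N-MC, and a bar at the mean of the 2 libraries of a group. RD-ES control has the lowest mean for each gene, and for CHAC1 the eKD2 libraries of both lines lie in the same range.

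Promoter sequence was inspected because ATF4 and CHOP act through known DNA elements, and the sites found are shown here for the members that hold one. RefSeq windows of the 250 bases before a transcription start (17 windows, taken on GRCh38.p14 and matched exactly to GRCh37) were found for 9 of the 10 genes. The letters TGATGNAA, the core of the C/EBP-ATF composite element (CARE) to which ATF4 binds with C/EBP proteins, were searched on both strands, as were the letters TGACGTCA of the cAMP response element (CRE). TGATGNAA was present before a start of ATF3 and CHAC1, and TGACGTCA before a start of PPP1R15A. Of all 34943 promoter windows, 3.15% held TGATGNAA and 1.63% held TGACGTCA. Counted by gene, as for the members, 3.89% of 27305 genes held TGATGNAA before a start and 2.03% held TGACGTCA. The matches are given 5′ to 3′ on the plus strand of GRCh37 within 30 bases, with the motif in capitals.
ATF3, CARE at chr1:212738547-212738576: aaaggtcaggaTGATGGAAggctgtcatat
CHAC1, CARE at chr15:41245449-41245478: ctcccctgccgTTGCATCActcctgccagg
PPP1R15A, CRE at chr19:49375609-49375638: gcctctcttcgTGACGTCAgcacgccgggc

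The ATF3 match lay 191 bases before the start used, outside any annotated exon. The CHAC1 match read TGATGNAA on the minus strand, 209 bases before its start, and all 8 motif bases lay inside exons of longer annotated transcripts. The PPP1R15A match was 58 bases before its start and likewise inside annotated exons. A match of letters is a description and does not show binding, and a member without a match has only been shown to lack these letters in these windows.

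The transcription factors of the response are described first. ATF4 (chr22:39915700-39918688, plus strand, GRCh37) is the central factor. It was among the more abundant genes in both lines. Its levels were 192 and 201 FPKM in RD-ES control and 232 and 232 FPKM in RD-ES eKD2. In SK-N-MC they were 435 and 462 FPKM in control, against 414 and 445 FPKM in eKD2. The RD-ES libraries did not overlap, with eKD2 above control, while the SK-N-MC libraries did. In RD-ES the mean was 197 ± 6.70 FPKM in control and 232 ± 0.537 FPKM in eKD2 (SD, n = 2 each), 1.18-fold higher, a log2 fold change of 0.24 (SE 0.0615, limma adjusted p = 0.241). In SK-N-MC the log2 fold change was -0.063 (limma adjusted p = 0.738). ATF4 mRNA was thus not called in either line.

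ATF5 (chr19:50431959-50437192, plus strand) is a close relative of ATF4 whose translation is controlled in the same way. It stood at 19.5 and 19.6 FPKM in RD-ES control and 39.3 and 46.7 FPKM in RD-ES eKD2. In SK-N-MC it stood at 322 and 342 FPKM in control, against 483 and 523 FPKM in eKD2, where it was the highest of the 10 genes. The eKD2 libraries were above the controls in both lines. The gene rose 2.20-fold in RD-ES (log2 fold change 1.10, SE 0.0952, limma adjusted p = 0.0126). In SK-N-MC it was 1.52-fold higher without passing the threshold (log2 fold change 0.60, limma adjusted p = 0.107). The RD-ES call was lost without either RD-ES control library (adjusted p = 0.0935 without replicate 1 and 0.0956 without replicate 2) and without any 1 of the SK-N-MC libraries (0.0727 to 0.0798). ATF5 shares 565 exon bases with NUP62 (60.3 FPKM on average) on the other strand, and the library kit did not mark strand.

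ATF3 (chr1:212738676-212794119, plus strand), a stress-induced factor of the same bZIP class, had estimates of opposite sign in the lines. RD-ES control held 11.1 and 8.82 FPKM and RD-ES eKD2 52.3 and 55.1 FPKM. SK-N-MC control held 58.4 and 61.8 FPKM and SK-N-MC eKD2 37.9 and 36.2 FPKM. The groups did not overlap in either line. ATF3 rose 5.40-fold in RD-ES, with means of 9.96 ± 1.61 FPKM in control and 53.7 ± 1.97 FPKM in eKD2 (SD, n = 2 each; log2 fold change 2.33, SE 0.112, limma adjusted p = 0.0012). SK-N-MC eKD2 was 38.4% lower (log2 fold change -0.68, limma adjusted p = 0.109). The difference of the knockdown change, SK-N-MC minus RD-ES, was -3.01 on the log2 scale (SE 0.158, limma adjusted p = 0.00167).

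CEBPB (chr20:48807367-48809205, plus strand) encodes C/EBPβ, a factor that can pair with ATF4 and CHOP. It was measured at 10.2 and 11.7 FPKM in RD-ES control, against 17.0 and 15.1 FPKM in the RD-ES eKD2 libraries. The SK-N-MC libraries were at 54.6 and 57.3 FPKM in control, against 54.4 and 51.9 FPKM in eKD2. RD-ES eKD2 lay above control by 1.47-fold, short of the threshold (log2 fold change 0.51, SE 0.0971, limma adjusted p = 0.158). SK-N-MC eKD2 lay narrowly below control (log2 fold change -0.073, limma adjusted p = 0.828).

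DDIT3 (chr12:57910371-57915520, minus strand) encodes CHOP, which links lasting stress to cell death. The RD-ES libraries gave 40.4 and 43.1 FPKM in control, against 99.2 and 110 FPKM in eKD2. The SK-N-MC libraries gave 185 and 190 FPKM in control, against 139 and 150 FPKM in eKD2. Neither line had overlapping groups, and eKD2 was above control in RD-ES and below it in SK-N-MC. DDIT3 rose 2.51-fold in RD-ES, with means of 41.7 ± 1.92 FPKM in control and 105 ± 7.87 FPKM in eKD2 (SD, n = 2 each; log2 fold change 1.31, SE 0.0792, limma adjusted p = 0.00324). SK-N-MC eKD2 was 22.8% lower (log2 fold change -0.37, limma adjusted p = 0.175), and the difference of the changes was -1.68 (SE 0.112, limma adjusted p = 0.00484). DDIT3 shares 355 exon bases with MARS1, on the opposite strand and listed as MARS, which averaged 896 FPKM. MARS had means of 1035 FPKM in RD-ES control and 989.7 FPKM in RD-ES eKD2 (log2 fold change -0.070, limma adjusted p = 0.884). Its SK-N-MC means were 739.9 and 820 FPKM (0.14, limma adjusted p = 0.74). The libraries of MARS were spread widely, with an SD of 106 FPKM for RD-ES control and 157 FPKM for RD-ES eKD2. For SK-N-MC the SD was 3.97 FPKM in control and 105 FPKM in eKD2. MARS was not called in either line, so nothing is read from the order of its means. The locus listed with the DDIT3 values, chr12:57853918-57914300, starts before the annotated gene. How reads were split between these genes was not tested.

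Effectors and feedback regulators followed. TRIB3 (chr20:343479-378203, plus strand), a pseudokinase that binds AKT and restrains ATF4 and CHOP, was the gene besides ATF5 with both eKD2 libraries above both controls in each line. Its RD-ES libraries held 6.89 and 6.02 FPKM in control, against 19.2 and 21.8 FPKM in eKD2. Its SK-N-MC libraries held 73.7 and 77.4 FPKM in control, against 122 and 132 FPKM in eKD2. TRIB3 rose 3.18-fold in RD-ES, with means of 6.45 ± 0.618 FPKM in control and 20.5 ± 1.80 FPKM in eKD2 (SD, n = 2 each; log2 fold change 1.53, SE 0.0999, limma adjusted p = 0.00403). In SK-N-MC it was 1.68-fold higher (log2 fold change 0.74, SE 0.0999, limma adjusted p = 0.0678). The changes in the lines did not differ past the threshold (difference -0.79, limma adjusted p = 0.148).

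CHAC1 (chr15:41245160-41248710, plus strand), an enzyme that breaks down glutathione, had the largest change of the 10 genes in each line. Its FPKM was 3.02 and 3.63 in RD-ES control and 44.3 and 56.3 in RD-ES eKD2. In SK-N-MC its FPKM was 96.9 and 107 in control and 49.97 and 57.1 in eKD2. Both eKD2 groups thus came to a similar level from controls far apart. The RD-ES means were 3.33 ± 0.431 FPKM in control and 50.3 ± 8.45 FPKM in eKD2 (SD, n = 2 each), and CHAC1 thus rose by 3.56 on the log2 scale (SE 0.145, limma adjusted p = 0.000657), which ranked 6 of the 15175 genes by p. It moved from percentile 24.5 to percentile 81.5 of the tested genes by level. In SK-N-MC the mean was 102 ± 7.27 FPKM in control and 53.5 ± 5.02 FPKM in eKD2 (SD, n = 2 each), 47.6% lower (log2 fold change -0.92, SE 0.145, limma adjusted p = 0.105). The difference of the changes was -4.48 (SE 0.206, limma adjusted p = 0.00119).

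SESN2 (chr1:28586029-28609002, plus strand) encodes Sestrin2, a leucine sensor that restrains mTORC1. The RD-ES libraries gave 5.11 and 5.56 FPKM in control, against 26.9 and 28.3 FPKM in eKD2. The SK-N-MC libraries gave 27.98 and 27.8 FPKM in control, against 15.7 and 17.8 FPKM in eKD2. RD-ES eKD2 thus reached the level of SK-N-MC control. SESN2 rose 5.18-fold in RD-ES, with means of 5.34 ± 0.315 FPKM in control and 27.6 ± 1.02 FPKM in eKD2 (SD, n = 2 each; log2 fold change 2.18, SE 0.0905, limma adjusted p = 0.000657). SK-N-MC eKD2 was 40.0% lower (log2 fold change -0.71, limma adjusted p = 0.0616), and with a filter at a mean of 5 FPKM or with libraries scaled to 1 median it was called lower there (adjusted p = 0.0423 and 0.044). The difference of the changes was -2.88 (SE 0.128, limma adjusted p = 0.00119).

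PPP1R15A (chr19:49375469-49379316, plus strand) encodes GADD34, which directs protein phosphatase 1 to eIF2α and so ends the response. It was at 8.28 and 9.26 FPKM in RD-ES control, against 16.4 and 18.5 FPKM in the RD-ES eKD2 libraries. In SK-N-MC it was at 46.7 and 47.3 FPKM in control, against 46.2 and 51.0 FPKM in eKD2, with overlapping groups. It rose 1.99-fold in RD-ES (log2 fold change 0.91, SE 0.0979, limma adjusted p = 0.0301) and had a log2 fold change of 0.047 in SK-N-MC (limma adjusted p = 0.904). Its call in RD-ES was the weakest of the 7: it was lost without any 1 of the 8 libraries (adjusted p up to 0.151) and at a pseudocount of 5 (0.0531).

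NUPR1 (chr16:28544029-28550329, minus strand), a small stress-induced chromatin protein, was near the limit of detection. It was listed at 0 and 0.175 FPKM in RD-ES control, against 1.55 and 0 FPKM in the RD-ES eKD2 libraries. The SK-N-MC values were 1.58 and 1.09 FPKM in control, against 1.45 and 2.98 FPKM in eKD2. The groups overlapped in each line and no change was detectable at this depth (RD-ES, limma adjusted p = 0.675; SK-N-MC, 0.783).

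**Figure D2:**
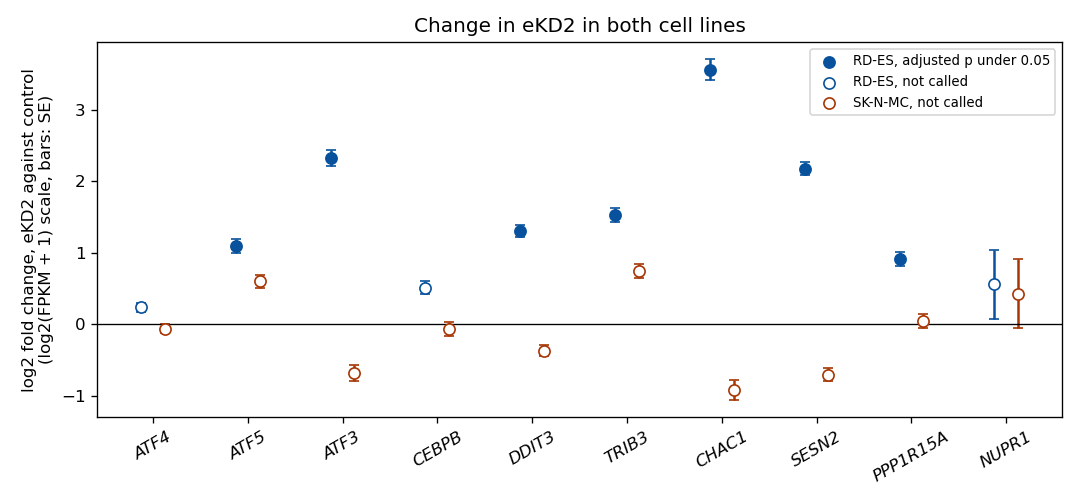
Log2 fold change of eKD2 against control for the 10 genes on the log2(FPKM + 1) scale in RD-ES (blue) and SK-N-MC (orange), with bars of 1 SE and filled points for adjusted p under 0.05. The 7 filled points are all RD-ES and all above 0, and the estimates of CHAC1, ATF3, SESN2 and DDIT3 lie on opposite sides of 0 in the lines.

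Against all genes, the counts were as follows. In RD-ES 52 of 15175 genes were called (0.343%), 40 of them higher (0.264%), and 7 of the 10 stress response genes were among the latter. This contrast had a part in the choice of the genes, so nothing is read from the gap. The median log2 fold change of the 10 genes was 1.20, against 0.0315 over all genes. In 9 of the 10 both eKD2 libraries were above both controls, an arrangement found in 24.2% of all genes, and in 0 of the 10 both were below, found in 15.1%. In SK-N-MC 49 genes were called (0.323%) and none of the 10, while at an unadjusted limma p under 0.05 there were 6 (13% of all genes), of which TRIB3 and ATF5 were higher and DDIT3, CHAC1, ATF3 and SESN2 lower. Here both eKD2 libraries were above the controls in 2 of the 10 (22.2% of all genes) and below them in 5 (25.1%). Their median log2 fold change was -0.068, against -0.00493 over all genes.

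The difference of the knockdown change was called for 37 genes (0.244%), 21 of them with a lower value in SK-N-MC (0.138%), among which were the 4 genes CHAC1, SESN2, ATF3 and DDIT3. The difference was below 0 for all 10 genes, with a median of -0.83 against -0.0491 over all genes. It did not pass the threshold for TRIB3, PPP1R15A (-0.87, limma adjusted p = 0.12), CEBPB (-0.59, 0.206), ATF5 (-0.50, 0.236), ATF4 (-0.30, 0.255) or NUPR1. All these calls use the spread shared by the 4 groups: with each line fitted alone none of the 10 was called in RD-ES, with adjusted p from 0.108 for SESN2 to 0.496 for PPP1R15A among the 7.

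How far the lines stood apart without the knockdown was examined next. The comparison uses the same control libraries as the knockdown contrasts, so the values are set side by side and not related by a test. SK-N-MC control exceeded RD-ES control by 30.7-fold for CHAC1, 17.0-fold for ATF5 and 11.7-fold for TRIB3. The factor was 6.03 for ATF3, 5.36 for PPP1R15A, 5.23 for SESN2, 5.10 for CEBPB, 4.49 for DDIT3 and 2.28 for ATF4. These 9 genes were called higher (limma adjusted p from 5.13e-06 for ATF5 to 3.82e-05 for ATF4), while NUPR1 was not (log2 fold change 1.10, limma adjusted p = 0.0966). The lines differed broadly: 57.8% of all genes were called and 31.4% were higher in SK-N-MC, so a call here is common. The median log2 fold change was 2.28 for the 10 genes and 0.065 for all. Scaling each library to the same median moved the median of all genes by -0.107 on the log2 scale and reversed none of the 10. Each line is a single line, so no difference between them can be tied to any 1 property.

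Genes that mark other cells were also at unequal levels in the lines. Of 5 such markers 4 were in the matrix, and their summed level was 1.16 to 1.99 FPKM in RD-ES control and 160.6 to 165.6 FPKM in SK-N-MC control. It was 2.00 to 3.55 FPKM in RD-ES eKD2 and 181.7 to 185 FPKM in SK-N-MC eKD2. The SK-N-MC sum was mainly DCN, listed as a fibroblast marker (136 FPKM in control), and PTPRC, listed as a blood cell marker. PTPRC was at 22.0 FPKM in SK-N-MC control against 0.0155 FPKM in RD-ES control. CDH5, listed as an endothelial marker, stayed at or under 0.573 FPKM. None of the 3 tested markers was called in eKD2 of either line. The samples were cultures of established lines, which the paper reports as authenticated, so these genes are given as levels in each culture. Bulk RNA does not show which cells a transcript came from. The part of these markers in the line difference was not tested.

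In eKD2 the lines stood closer together for several genes. For CHAC1 the ratio of SK-N-MC to RD-ES was 30.7 in control and 1.06 in eKD2, where the libraries of the lines overlapped. For DDIT3 it was 4.49 in control and 1.38 in eKD2. ATF3 and SESN2 changed order, from ratios of 6.03 and 5.23 in control to 0.689 and 0.605 in eKD2, with RD-ES eKD2 above SK-N-MC eKD2 in both libraries. ATF5, TRIB3, CEBPB and PPP1R15A kept their order, with ratios in eKD2 of 11.7, 6.21, 3.31 and 2.79. ATF4 was 2.28-fold higher in SK-N-MC in control and 1.85-fold in eKD2. The change of this gap is the difference tested above, which was called for CHAC1, SESN2, ATF3 and DDIT3 of the 10.

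**Figure D3:**
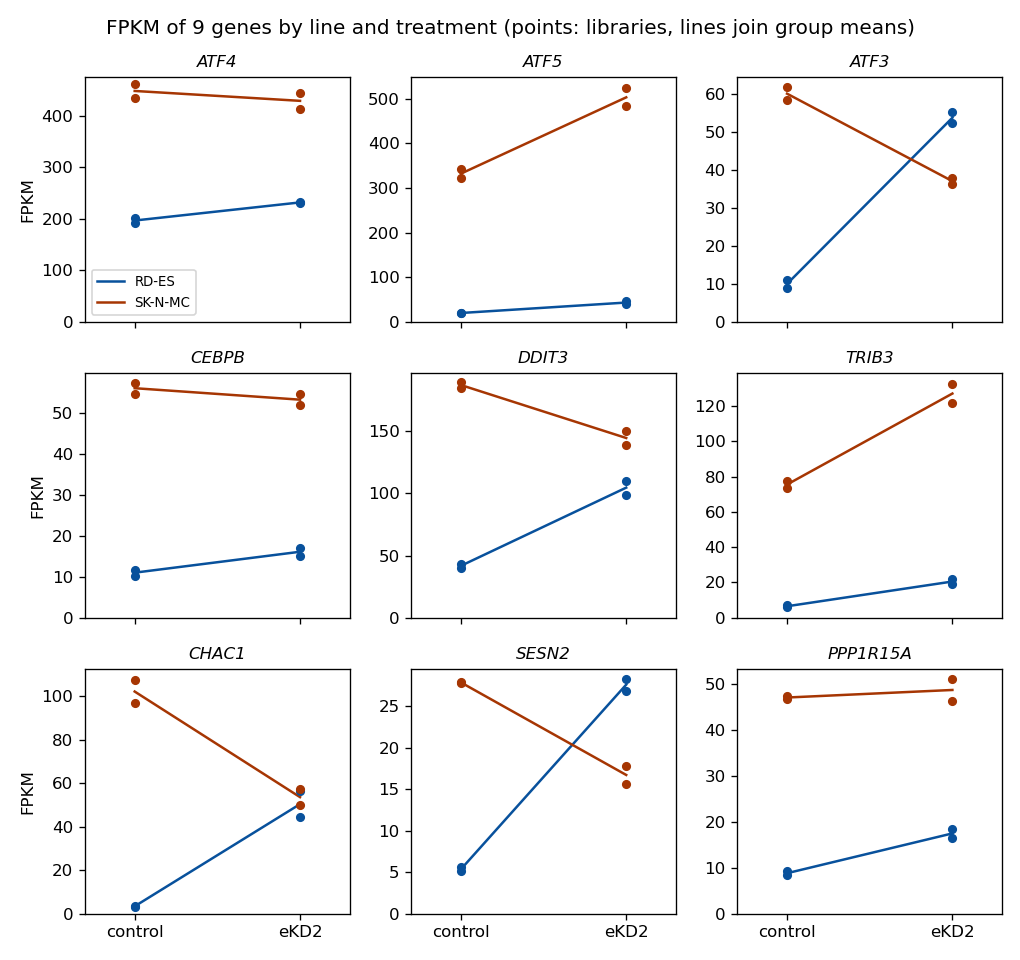
FPKM of the 9 genes other than NUPR1 in control and eKD2, with RD-ES in blue and SK-N-MC in orange, a point for each library and lines joining the group means; each panel has its own axis from 0. The lines cross for ATF3 and SESN2, meet for CHAC1, approach each other for DDIT3, and for ATF5 and TRIB3 stay well apart.

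Within a library, ratios between genes do not depend on how the library was scaled, so the targets were also read per 100 FPKM of ATF4. CHAC1 stood at 1.58 and 1.80 per 100 ATF4 in RD-ES control and at 19.2 and 24.2 in RD-ES eKD2. It stood at 22.3 and 23.2 in SK-N-MC control and at 12.1 and 12.8 in SK-N-MC eKD2. RD-ES eKD2 and SK-N-MC control therefore carried a similar amount of CHAC1 for their ATF4. DDIT3 was likewise lowest in RD-ES control, at 21.0 and 21.4, and stood at 42.8 and 47.5 in RD-ES eKD2. It stood at 42.6 and 41.0 in SK-N-MC control, so the lower RD-ES eKD2 library was only narrowly above the higher SK-N-MC control. SK-N-MC eKD2 gave 33.65 and 33.75 for DDIT3. For SESN2 the ratio was 2.66 and 2.76 in RD-ES control and 11.6 and 12.2 in RD-ES eKD2. SESN2 was then higher in RD-ES eKD2 than in SK-N-MC control, where it was 6.43 and 6.02, and lower again in SK-N-MC eKD2, at 3.784 and 3.996.

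TRIB3 and ATF5 followed another order, with SK-N-MC eKD2 highest. RD-ES control gave 3.59 and 2.99 TRIB3 per 100 ATF4, RD-ES eKD2 8.30 and 9.38, SK-N-MC control 16.9 and 16.8, and SK-N-MC eKD2 29.5 and 29.8. No ratio was tested, and TRIB3, ATF5, CHAC1 and SESN2 were not called in SK-N-MC. The ratios below each set a gene with a higher SK-N-MC eKD2 estimate against a gene with a lower one. Their widening in SK-N-MC was thus set by that choice and is a description. TRIB3 per 100 CHAC1 was 76.0 and 72.2 in SK-N-MC control and 244 and 232 in SK-N-MC eKD2. In RD-ES this ratio went the other way, from 228 and 166 in control to 43.4 and 38.7 in eKD2. ATF5 per 100 SESN2 likewise was 1152 and 1229 in SK-N-MC control and 3085 and 2943 in SK-N-MC eKD2, against 381 and 352 in RD-ES control and 146 and 165 in RD-ES eKD2.

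The rest of the pathway was read from gene lists written with earlier results of these data known, so their counts too are descriptions. The list nearest to the 10 genes held other targets of ATF4 and CHOP, of which 48 of 49 were tested. In RD-ES 8 of the 48 were called higher and none lower, beside 0.343% of all genes called and 0.264% called higher. At an unadjusted limma p under 0.05, 25 of the 48 were higher and 0 lower in RD-ES, beside 12.3% of all genes in either direction. The median log2 fold change was 0.30 against 0.0315 over all genes. In SK-N-MC none was called, and at an unadjusted limma p under 0.05 there were 6 higher and 6 lower of the 48, beside 13% of all genes in either direction. The median there was -0.0454 against -0.00493 over all genes.

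The genes that rose in RD-ES serve amino acid supply, redox balance and growth control. CTH, which makes cysteine from cystathionine, went from 5.45 ± 0.403 to 25.6 ± 0.462 FPKM in RD-ES (SD, n = 2 each, log2 fold change 2.04, limma adjusted p = 0.000657). DDIT4, an inhibitor of mTORC1, went from 4.34 ± 0.115 to 20.8 ± 0.475 FPKM (2.03, limma adjusted p = 0.000722). STC2, a secreted glycoprotein, went from 2.26 ± 0.00568 to 12.2 ± 3.48 FPKM (1.99, limma adjusted p = 0.0173). For these 3 genes the change also differed between the lines, with differences of -2.32, -2.40 and -2.30 (limma adjusted p = 0.00152, 0.00167 and 0.0462). ASNS, the asparagine synthetase, rose from 59.5 to 143 FPKM (limma adjusted p = 0.00349), and SLC7A11, the cystine importer, from 11.1 to 25.5 FPKM (0.0301). PSAT1 of serine synthesis rose from 73.0 to 112 FPKM (0.0106), MTHFD2 of the mitochondrial folate cycle from 141 to 193 FPKM (0.0329) and SARS, the seryl-tRNA synthetase, from 144 to 211 FPKM (0.0223). In SK-N-MC the largest estimates of the list were those of the low genes INHBE (0.77, limma adjusted p = 0.376) and GDF15 (0.72, 0.70), and neither was called.

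Upstream of ATF4, 22 kinases, eIF2 and eIF2B subunits, phosphatase subunits and their modulators were tested. In RD-ES 1 was called higher and none lower, beside 0.343% of all genes called. At an unadjusted limma p under 0.05, 2 of the 22 were higher and 0 lower there, beside 12.3% of all genes in either direction. The median log2 fold change was 0.0801 against 0.0315 over all genes. The called gene was IMPACT, an inhibitor of the amino acid sensing kinase GCN2. IMPACT went from 1.52 ± 0.0127 to 4.94 ± 0.676 FPKM (SD, n = 2 each, log2 fold change 1.23, limma adjusted p = 0.0115). IMPACT was at 49.0 and 50.7 FPKM in SK-N-MC control and eKD2. The next largest estimate in RD-ES was that of PPP1CB, a catalytic subunit of protein phosphatase 1 (0.40, limma adjusted p = 0.101). In SK-N-MC none was called and 5 of the 22 were lower at an unadjusted limma p under 0.05 (13% of all genes in either direction), with the largest estimates for the eIF2 subunit genes EIF2S2 (-0.49, limma adjusted p = 0.103) and EIF2S1 (-0.43, 0.105).

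None of the 17 tested partner factors and paralogs was called in either line. At an unadjusted limma p under 0.05, 6 of the 17 were higher in RD-ES and 3 lower in SK-N-MC, beside 12.3% and 13% of all genes in either direction. The medians were 0.187 and -0.164, against 0.0315 and -0.00493 over all genes. The largest estimates in RD-ES were those of JDP2, a bZIP repressor (0.72, limma adjusted p = 0.0594), and JUN (0.59, 0.147). In SK-N-MC they were those of SESN1, the relative of SESN2 (-0.47, limma adjusted p = 0.428), and NFE2L2, which encodes NRF2 (-0.37, 0.20).

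The part of the unfolded protein response run by ATF6 and XBP1 showed no called gene among 14 in either line. Its median log2 fold change was -0.0271 (RD-ES) and 0.0418 (SK-N-MC), and at an unadjusted limma p under 0.05 it had 1 gene higher in RD-ES and 1 higher and 4 lower in SK-N-MC, out of 14 each. The shares of all genes at that threshold were 12.3% and 13% in either direction. XBP1 itself had the largest estimate in RD-ES (0.53, limma adjusted p = 0.11), followed by DNAJB9 (0.22, 0.675). SEL1L (0.43, limma adjusted p = 0.208) and PDIA4 (-0.41, 0.133) had the largest in SK-N-MC.

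**Figure D4:**
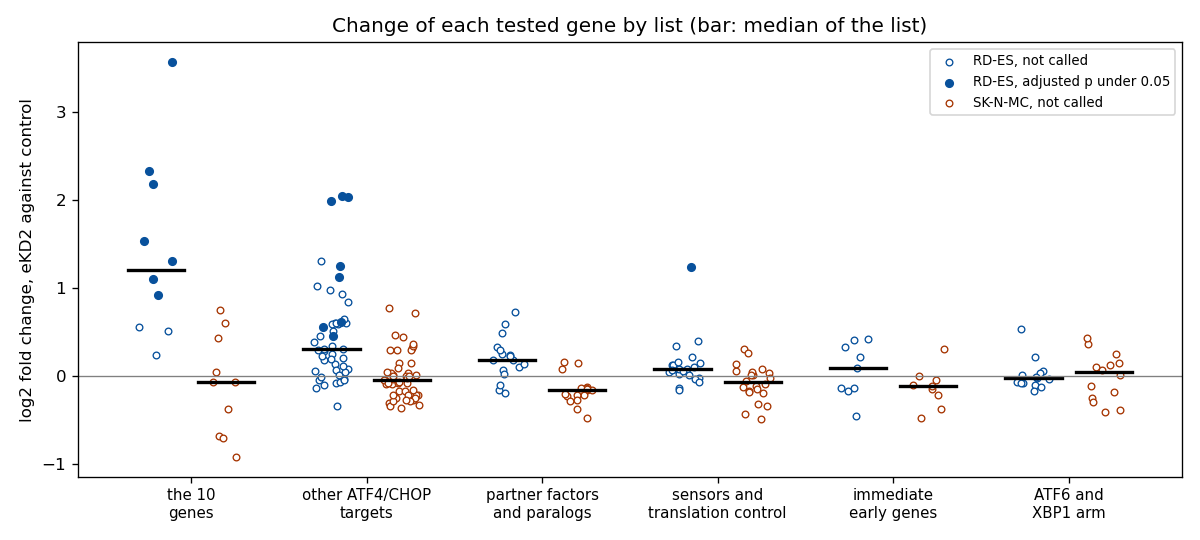
Log2 fold change of eKD2 against control for each tested gene of the 10 and of 5 other lists, in RD-ES (blue) and SK-N-MC (orange), with filled points for adjusted p under 0.05 and a bar at each median. Filled points appear in RD-ES alone, 7 among the 10 genes, 8 among the other ATF4 and CHOP targets and 1 among the sensors. Of all tested genes 0.343% were called in RD-ES.

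Genes with the pattern most like that of a member over the 8 libraries were sought among 4675 genes that averaged 5 FPKM or more and spanned at least 1 on the log2 scale. Such a correlation rests on 8 libraries that share the difference between the lines, and is a description. For ATF4 the nearest were MOAP1 (Pearson r of 0.999), TRIM52-AS1 (0.998) and RIPK4 (0.998), but 1209 genes exceeded an r of 0.95, so its pattern was shared by many. DDIT3 had 36 such genes, led by DDIT4 (0.992), JUN (0.988) and CHAC1 (0.979). CHAC1 had 5, led by DDIT3 (0.979), ATF3 (0.970) and JUN (0.961).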

How the data were processed

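RNA-seq of 8 libraries (RD-ES and SK-N-MC, control and eKD2, 2 each) was used. The authors sequenced 75 bases from 1 end, aligned the reads with STAR (GRCh37), assembled transcripts with cufflinks and deposited FPKM per gene from cuffnorm. The read counts behind their DESeq2 test were not used here. The deposited FPKM values were compared as log2(FPKM + 1) with limma 3.58.1 in R 4.3.3 (lmFit and eBayes with trend, 4 groups, no replicate block, genes averaging 1 FPKM or more, Benjamini-Hochberg adjustment). The procedure was also run on simulated data with equal spread in all groups and no difference between the lines. Such data cannot check the shared spread that the calls use. Groups came from the sample labels, and no library was left out. Depth is known only roughly, from read steps. The 10 genes, the pathway lists and the tests were chosen with earlier results of these data known. Named were the 10 genes and, of each list, every called gene and the 2 largest absolute log2 fold changes in each line. Alternatives changed the pseudocount, filter, scaling, trend, fit per line, replicate block and libraries left out. Annotation was GENCODE for GRCh37, and promoters were from RefSeq.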

Additional observations from a re-analysis of the deposited data

Results flagged for a closer look

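For 4 genes the eKD2 change against control differed between SK-N-MC and RD-ES by the interaction contrast of the limma fit (2 libraries per group). This contrast was called for 0.244% of all genes. The difference, SK-N-MC minus RD-ES on the log2(FPKM + 1) scale, was -4.48 for CHAC1 (adjusted p = 0.00119) and -2.88 for SESN2 (adjusted p = 0.00119). It was -3.01 for ATF3 (adjusted p = 0.00167) and -1.68 for DDIT3 (adjusted p = 0.00484). In each of the 4 genes both RD-ES eKD2 libraries were above both controls and both SK-N-MC eKD2 libraries below theirs. Of all genes, 24.2% had the former arrangement and 25.1% the latter, and the share with both at once was not computed. The 4 genes were picked by their call in these same libraries, so nothing further is read from it.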

How the results depend on the processing

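Directions of the 10 genes were kept under the other pseudocounts, filters, scalings, trend setting and fits, except for NUPR1, whose difference between the lines was 0.012 at a pseudocount of 5. Leaving out 1 library at a time gave -0.12 to 1.23 for NUPR1 in RD-ES, -0.80 to 0.55 for its difference and -0.023 to 0.12 for PPP1R15A in SK-N-MC. With RD-ES eKD2 replicate 1 or 2 left out, NUPR1 was called higher in SK-N-MC control than in RD-ES control (adjusted p = 0.0261 and 0.0254). In SK-N-MC 1 of the 10 was called at a pseudocount of 5 (TRIB3, adjusted p = 0.0473), 1 with the filter at a mean of 5 FPKM and 1 with median scaling (SESN2 in both). With each line alone, which leaves fewer libraries to estimate the spread, 0 of the 10 were called in RD-ES, and over all genes there was 1 call in RD-ES, against 13 in SK-N-MC. Without 1 library 5 to 6 of the 10 were called in RD-ES, and PPP1R15A was also lost without the trend (adjusted p = 0.055).

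Over all genes, no filter gave 79 calls in RD-ES, 118 in SK-N-MC and 66 for the difference, and the filter at 5 FPKM gave 24 for the difference. Leaving out 1 library gave 27 to 71 calls in RD-ES, 12 to 76 in SK-N-MC and 54 to 81 for the difference. Apart from these constructions, the cause was not tested. Replicate numbers were shared by the groups. The deviations of same-numbered control and eKD2 libraries had an r across genes of 0.056 for RD-ES and 0.0274 for SK-N-MC. Such an r cannot show whether these libraries were prepared together, so a pairing is not settled here. With the replicate block, 3 of the 10 were called in RD-ES (CHAC1, SESN2 and DDIT3) and 2 for the difference (CHAC1 and SESN2), with 11, 5 and 7 calls over all genes in RD-ES, SK-N-MC and the difference. The block could not enter the comparison of the control groups. Taking the sum of rows per symbol changes nothing, since each symbol has 1 row, and NUPR1 has no value with the filter at 5 FPKM.

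An unequal depth, lowest in RD-ES eKD2 replicate 1, limits low genes such as NUPR1 most, and 2 libraries per group limit all comparisons. FPKM carries no read counts, so counting error could not be modelled.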

Other observations

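Immediate early genes, which respond to growth factors and to handling of cells, were read beside the stress response. Of 9 tested none was called in either line. At an unadjusted limma p under 0.05, 2 were higher and 1 lower in RD-ES and 2 were lower in SK-N-MC, beside 12.3% and 13% of all genes in either direction. The medians were 0.0938 and -0.12 on the log2 scale, against 0.0315 and -0.00493 over all genes. FOSL1 averaged 3.98 ± 0.178 FPKM in RD-ES control and 2.65 ± 0.184 FPKM in RD-ES eKD2 (SD, n = 2 each, log2 fold change -0.45, limma adjusted p = 0.342). ZFP36, which promotes mRNA decay, had a log2 fold change of 0.42 in RD-ES (limma adjusted p = 0.465). In SK-N-MC the largest estimates were those of IER3 (-0.48, limma adjusted p = 0.193) and FOSL1 (-0.37, 0.399).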
